A study of Homo sapiens with 2 samples.

Results

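A total of 831 tiles of the genome were unmethylated in both libraries although they lay far from any annotated gene start. The autosomes of hg19 were divided into tiles of 500 bp, and 99847 tiles held at least 10 CpG cytosines with at least 5 reads in each library. The level of a cytosine was the methylated share of its reads, and the level of a tile was the mean over its cytosines. Of these tiles, 25893 lay more than 5 kb from the start of every transcript of every gene type in GENCODE and are called distal. The 831 tiles were selected on their measured levels, as the distal tiles under 0.1 in both libraries, and made up 3.21% of the distal tiles. Their low level is therefore not a result. Within 5 kb of a start, 18843 of 73954 tiles, or 25.5%, met the same limit. Another set used for comparison is the 13867 distal tiles with a level of at least 0.8 in both libraries, called methylated distal tiles.

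The data were 2 MCC-Seq libraries, in which bisulfite-converted DNA is captured with probes for selected CpG-rich regions and sequenced. One library was from SKNO-1, an acute myeloid leukemia (AML) cell line with the RUNX1-RUNX1T1 fusion gene, also called AML1-ETO. The other was from SKNO1-siAE, which is SKNO-1 infected with the lentiviral vector pRRLcPPT.hPGK encoding siAGF1 oligonucleotides against the fusion site of the AML1-ETO mRNA. Both were grown in RPMI medium with fetal calf serum, penicillin and streptomycin. Silencing of the fusion cannot be checked from methylation counts. There was 1 library per cell line and none of cells with a control vector, so no difference between them was tested, and effects of infection, passage and silencing cannot be told apart. Read counts are summed over cytosines, so a read that spans several CpGs is counted once at each. Intervals given here are 95% Wilson intervals and cover counting error only, because the reads carry no molecular identifiers. They and the upper limits given later treat these counts as independent, which counts from the same read are not. They can therefore be too narrow. The libraries held 83620068 and 82164216 site reads at a mean depth of 17.7 and 17.5 reads per cytosine. At mitochondrial cytosines, which are thought to be essentially free of CpG methylation, 0.351% and 0.378% of reads were called methylated.

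Most CpGs of a mammalian genome are methylated, and the common exceptions are CpG islands at promoters. Away from promoters, low methylation is known at orphan CpG islands, at active enhancers, at sites occupied by the insulator protein CTCF and at transfer RNA (tRNA) genes. RNA polymerase III transcribes tRNA genes from promoter elements inside the gene, the A box and the B box, and tRNA genes are largely left out of GENCODE, so that a tile at a tRNA gene can count as distal. In blood cells, distal enhancers are bound by factors such as RUNX1, PU.1, GATA and C/EBP proteins.

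Members of 3 kinds are shown first by their sequence. Each sequence is the central 300 bases of a member tile from the + strand of hg19, and the capitals mark its CpGs (RUNX1, THY1, RNASE2, CXCR4, ETS1) or the motif match (STX11, KPNA3). The tiles named for blood genes are 5 of those with the most shared cytosines among tiles nearest to a listed blood gene and free of untranslated regions. The RUNX1 stretch lies at chr21:36399101-36399400 in an intron of RUNX1, the ETS1 stretch at chr11:128418601-128418900 in an intron of ETS1, and the RNASE2 stretch at chr14:21439601-21439900 between genes. The CXCR4 stretch, at chr2:137181101-137181400, is also intergenic, and the THY1 stretch, at chr11:119352101-119352400, lies in an intron of the non-coding gene USP2-AS1. Their tiles hold 27 to 32 CpGs and show the CpG-rich kind of member at blood genes. The STX11 stretch, at chr6:144537601-144537900 between genes, shows the tRNA B box and was picked among several such tiles with the sequences in view. The KPNA3 stretch, at chr13:50422101-50422400 between genes, was chosen after the values were seen and shows the CTCF motif.
RUNX1: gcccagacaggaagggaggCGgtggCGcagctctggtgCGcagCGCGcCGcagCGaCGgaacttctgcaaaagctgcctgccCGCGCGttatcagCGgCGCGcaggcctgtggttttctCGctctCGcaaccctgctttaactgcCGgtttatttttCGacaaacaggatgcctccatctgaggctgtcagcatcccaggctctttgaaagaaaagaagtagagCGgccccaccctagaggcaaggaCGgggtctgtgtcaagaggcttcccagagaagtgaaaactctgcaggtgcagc
ETS1: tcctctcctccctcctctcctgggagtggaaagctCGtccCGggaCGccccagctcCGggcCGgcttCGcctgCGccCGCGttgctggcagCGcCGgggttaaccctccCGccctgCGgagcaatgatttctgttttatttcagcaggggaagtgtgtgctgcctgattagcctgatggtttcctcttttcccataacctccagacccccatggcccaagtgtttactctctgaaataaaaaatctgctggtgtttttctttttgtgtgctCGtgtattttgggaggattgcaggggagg
THY1: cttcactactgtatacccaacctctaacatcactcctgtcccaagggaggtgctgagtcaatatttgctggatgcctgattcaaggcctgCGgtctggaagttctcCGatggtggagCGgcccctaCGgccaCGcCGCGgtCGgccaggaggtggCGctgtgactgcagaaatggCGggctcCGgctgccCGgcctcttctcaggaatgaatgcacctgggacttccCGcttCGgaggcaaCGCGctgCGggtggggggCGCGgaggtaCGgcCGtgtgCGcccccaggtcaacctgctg
RNASE2: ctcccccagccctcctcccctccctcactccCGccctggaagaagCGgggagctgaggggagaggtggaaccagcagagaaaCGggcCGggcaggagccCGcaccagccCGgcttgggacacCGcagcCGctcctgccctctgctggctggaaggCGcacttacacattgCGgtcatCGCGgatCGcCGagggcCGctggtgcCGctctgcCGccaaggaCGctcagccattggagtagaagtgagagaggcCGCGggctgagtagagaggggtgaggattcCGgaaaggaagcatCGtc
CXCR4: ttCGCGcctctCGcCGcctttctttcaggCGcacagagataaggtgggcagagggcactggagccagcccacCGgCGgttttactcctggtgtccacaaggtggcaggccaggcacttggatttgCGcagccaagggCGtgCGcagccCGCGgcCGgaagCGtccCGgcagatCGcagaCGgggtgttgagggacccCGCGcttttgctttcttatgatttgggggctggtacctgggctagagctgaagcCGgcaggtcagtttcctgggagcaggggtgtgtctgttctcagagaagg
STX11: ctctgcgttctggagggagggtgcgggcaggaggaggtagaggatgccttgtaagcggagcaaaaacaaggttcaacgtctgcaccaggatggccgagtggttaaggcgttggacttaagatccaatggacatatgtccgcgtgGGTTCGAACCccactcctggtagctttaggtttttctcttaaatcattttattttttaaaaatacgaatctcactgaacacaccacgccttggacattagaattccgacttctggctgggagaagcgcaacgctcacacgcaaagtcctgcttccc
KPNA3: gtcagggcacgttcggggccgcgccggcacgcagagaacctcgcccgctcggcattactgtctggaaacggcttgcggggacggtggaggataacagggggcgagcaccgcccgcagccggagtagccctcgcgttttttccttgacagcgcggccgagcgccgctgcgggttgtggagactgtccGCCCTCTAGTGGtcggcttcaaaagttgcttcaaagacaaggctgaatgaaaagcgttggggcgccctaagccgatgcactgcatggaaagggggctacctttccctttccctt

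The members held 18280 shared cytosines. In SKNO-1, 5277 of the 364697 reads over them were methylated (1.45%, interval 1.41 to 1.49), and in SKNO1-siAE 5967 of 329729 (1.81%, interval 1.76 to 1.86). Summed over its cytosines, a member had 55 to 4004 reads in SKNO-1 (median 304) and 50 to 3838 reads in SKNO1-siAE (median 289). Tile levels had a median of 0.00525 in the SKNO-1 library and 0.00556 in the SKNO1-siAE library. Most members were thus well under the limit, and 659 of them (79.3%) were under 0.05 in both libraries. Exactly 0 methylated reads were counted in 337 members in SKNO-1, in 333 in SKNO1-siAE and in 188 in both. The level was higher in SKNO-1 in 284 members, higher in SKNO1-siAE in 359 and equal in 188. A difference of 0.05 or more was seen in 91 members. The Wilson intervals of the read shares did not overlap in 152 members, of which 54 were higher in SKNO-1 and 98 in SKNO1-siAE. No such count was made over all distal tiles, whose mean level difference (SKNO-1 minus SKNO1-siAE) was -0.0778. These numbers can therefore not be called particular to the members. Cytosines of the + strand averaged 0.0136 in SKNO-1 and 0.0196 in SKNO1-siAE, and those of the - strand 0.0155 and 0.018. In 127 members the shared cytosines lay on 1 strand only. Single cytosines could still be methylated, since 40 of the 18280 had a level of at least 0.5 in both libraries.

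The limit of 0.1 cut through a continuous range of levels. Just inside it were an intergenic tile on chromosome 1 starting at 2838501 (0.0304 in SKNO-1, 0.0997 in SKNO1-siAE), a tile nearest to CD7 (0.0573 and 0.0996) and a tile nearest to FOXN3 (0.099 and 0.083). Just outside were tiles nearest to EFHD2 (0.1 and 0.038), PLEKHM2 (0.0333 and 0.1) and SFXN3 (0.103 and 0). In SKNO-1, 1579 distal tiles were under 0.1, of which 52.6% were members. In SKNO1-siAE, 1025 distal tiles were under 0.1, of which 81.1% were members. The shared set therefore left out more of the tiles that were low in SKNO-1 than of those that were low in SKNO1-siAE.

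CpG density was used by the rule only through its minimum of 10 measured cytosines, which leaves out tiles with fewer than 5 CpGs. A member held a median of 21 CpG dinucleotides (interquartile range 14 to 31, range 5 to 75), against 18 over all distal tiles, 19 in methylated distal tiles and 35 in unmethylated tiles within 5 kb of a start. The ratio of observed to expected CpG had a median of 0.562 in members, 0.512 in methylated distal tiles and 0.764 near starts. The usual limits for a CpG island, here a GC content over 50% and a ratio over 0.6 within the tile, were passed by 283 members (34.1%, interval 30.9 to 37.3). They were passed by 18.7% of all distal tiles, by 21.2% of the methylated distal tiles and by 71.8% of the unmethylated tiles near starts. Members were thus somewhat richer in CpG than other distal tiles, and most of them were not islands by these limits. With at least 20 measured cytosines instead of 10, the share of members that passed was 51.2%.

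The share of distal tiles that were members was nearly level up to 30 CpGs and rose above that, as the plot by CpG density shows. It was 2.84% (99 of 3485) for tiles with 5 to 10 CpGs, 2.27% (158 of 6949) for 16 to 20 CpGs, 6.27% (122 of 1945) for 31 to 40 CpGs and 10.3% (42 of 407) for over 50 CpGs. Near starts the share went from 7.7% to 54.9% over the same classes and was higher than the distal share in each. The members with the most CpGs were a tile in an intron of CROCC with 75, a tile in coding sequence of PRDM12 with 70 and a tile near SIRPA with 69. Those with the fewest, 5 each, lay in DCDC1, in an intron of HERC1 and in an intron of TACR1, and both of the intronic tiles held the CTCF motif. The HERC1 tile had 0 of 185 methylated reads in SKNO-1 and 14 of 299 in SKNO1-siAE.

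Of the 831 members, 467 (56.2%, interval 52.8 to 59.5) were intergenic, 204 (24.5%) were in introns of protein-coding genes, 57 (6.86%) overlapped exons of protein-coding genes, and 86 (10.3%) and 17 (2.05%) were in introns and exons of non-coding genes. The share in gene bodies depended on the starts that define distal tiles, since it was 43.8% here and 66.2% when only protein-coding starts were counted. Of all distal tiles, 37.4% were intergenic, 35.1% were in introns and 18.5% in exons of protein-coding genes. Among methylated distal tiles, 30% were intergenic, 37.7% were in introns and 24.1% in exons of protein-coding genes. Exons of protein-coding genes were therefore a smaller share of the members than of either set. The distance to the nearest start had a median of 11832 bp (interquartile range 7438 to 20205), and the nearest start of a protein-coding gene was a median of 26545 bp away. The share of distal tiles that were members was 4.08% (211 of 5176) at 5 to 7.5 kb from a start, 3.66% (285 of 7793) at 10 to 20 kb, 1.82% (39 of 2137) at 50 to 100 kb and 0.376% (3 of 798) beyond 100 kb. Over all distal tiles, the median number of CpGs was 19 in the nearest of these classes and 18 in the farthest. By chromosome, the share ran from 1.61% on chromosome 18 to 6.78% on chromosome 19.

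The 3 members beyond 100 kb from any start were 2 neighbouring tiles upstream of DAOA and 1 tile nearest to TRIM36. The TRIM36 tile, with 20 CpGs and 173.6 kb from the nearest start, had 0 of 413 methylated reads in SKNO-1 and 0 of 152 in SKNO1-siAE, which allows a share of up to 0.00726 and 0.0197 (a limit of 3 reads of the total, which is lower than the Wilson upper limits of 0.00922 and 0.0246). The DAOA tiles were 271.2 and 270.7 kb from a start, with levels of 0.05 and 0 in SKNO-1 and 0 and 0.00342 in SKNO1-siAE. Next came 2 neighbouring tiles in an intron of MAML2, a coactivator of Notch signalling, 98.1 and 97.6 kb from a start, with levels of 0 and 0.0393 in SKNO-1 and 0 and 0.0016 in SKNO1-siAE.

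Joined with their neighbours the members formed 712 runs, of which 609 were a single tile, 89 were 2 tiles, 12 were 3 tiles and 2 were 4 tiles long, and the longest were 2000 bp. A run could end where the next tile had too few cytosines, so these lengths are lower limits. No measured neighbour was found for 443 members, and of the 388 with 1 or 2 measured neighbours 222 adjoined another member. Both sides were measured for 42 members, and in 2 of these both neighbours had a level of at least 0.5 in both libraries. The longest runs lay upstream of ZNF692 on chromosome 1 (249167001 to 249169000) and downstream of CDKN2C on chromosome 1 (51442501 to 51444500). The ZNF692 run, which held a tRNA box pair, had 43 methylated reads of 7814 in SKNO-1 and 14 of 4327 in SKNO1-siAE. The run at CDKN2C, which encodes an inhibitor of cyclin-dependent kinases, had 17 of 1598 and 1 of 1379. Of the 12 runs of 3 tiles, the 8 with the most shared cytosines lay nearest to IFRD1, MPZL1, HSPA6, WNT11, STARD13, H2BC13, ZNF184 and GPD2, and those at HSPA6, H2BC13, ZNF184 and GPD2 held a tRNA box pair. Levels of these 8 runs lay between 0.0015 and 0.00803 in SKNO-1 and between 0 and 0.0439 in SKNO1-siAE. Of the HSPA6 run, 2 tiles have a near-identical copy elsewhere in the genome, so their reads could come from either place.

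The selection also shaped the DNA directly beside the runs, because a measured distal tile that adjoins a run cannot be under 0.1 in both libraries. Farther out, from 1750 to 2000 bp on the right of the centre of a single tile, cytosines averaged 0.799 in SKNO-1 and 0.834 in SKNO1-siAE, and from 2000 to 2250 bp 0.764 and 0.721. On the left at the same distance they averaged 0.656 and 0.756, and from 2000 to 2250 bp 0.664 and 0.757. Over all distal tiles the mean was 0.746 and 0.824, so at about 2 kb the left side was below that level in both libraries and the right side was above or below it depending on the bin and library. SKNO1-siAE was the higher of the libraries in most bins.

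The tiles that adjoined a member without being one were mostly at middle levels. These 190 tiles averaged 0.355 in SKNO-1 and 0.473 in SKNO1-siAE, a difference of -0.118 (SKNO-1 minus SKNO1-siAE), against -0.0778 over all distal tiles. SKNO-1 was lower by at least 0.2 in 60 of them (31.6%) and higher by at least 0.2 in 18 (9.47%), against 16.9% and 2.59% of all distal tiles. Tiles whose mean over the libraries was 0.1 to 0.8 were also compared. Of the 144 such adjoining tiles, SKNO-1 was lower by at least 0.2 in 39.6% and higher in 12.5%, and of all 8442 such distal tiles in 43.9% and 6.33%. Among adjoining tiles, 48 were under 0.1 in SKNO-1 only and 21 in SKNO1-siAE only.

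The sequence of the members was searched on both strands for motif letters. A match is a description of the letters and not a binding site. The core motif of CTCF was found in 100 members (12%, interval 9.99 to 14.4), in 1% of all distal tiles (259 of 25893), in 0.267% of methylated distal tiles and in 1.2% of unmethylated tiles near starts. Of the 259 distal tiles with the motif, 38.6% (interval 32.9 to 44.7) were members, and the median level over all 259 was 0.101 in SKNO-1 and 0.218 in SKNO1-siAE. In each class of CpG density the motif was in 4.76% to 14.9% of members and in 0.384% to 0.902% of other distal tiles. Only 24 of the 100 passed the island limits. The CTCF members with the most cytosines, named after the values were seen, were the tile near KPNA3 shown above, a tile near RPN1, and a tile near SEPTIN9. The KPNA3 tile had 3 methylated reads of 1408 in SKNO-1 and 72 of 2698 in SKNO1-siAE. In the RPN1 tile the counts were 11 of 1048 and 0 of 606, and in the SEPTIN9 tile 1 of 868 and 3 of 516.

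A tRNA B box (GTTCGANNC) was found in 44 members (5.29%) and in 1.97% of methylated distal tiles. The A box followed by the B box 25 to 110 bases further on the same strand, the arrangement of a tRNA gene, was found in 28 members (3.37%, interval 2.34 to 4.83), in 0.404% of methylated distal tiles and in 0.785% of unmethylated tiles near starts. Of the 28, 13 lay on chromosome 6, which holds the large tRNA and histone gene clusters, and 3 on chromosome 1. RefSeq lists a tRNA gene between the same flanking protein-coding genes for 24 of the 28 (85.7%) and for 40 of 770 other members with both flanking genes found (5.19%). RefSeq was used in the gene order of another assembly, so no position was compared. The tile nearest to STX11 shown above, the tile nearest to ALOX5AP, with 55 CpGs, and a tile nearest to NUFIP1 were among these. The ALOX5AP tile had 4 methylated reads of 1457 in SKNO-1 and 19 of 1687 in SKNO1-siAE. In the NUFIP1 tile the counts were 0 of 1389 and 1 of 1622. The highest level among the 28 was 0.0779 in SKNO-1 and 0.0948 in SKNO1-siAE. Of the 138 distal tiles with the pair, whatever their level, 28 (20.3%, interval 14.4 to 27.8) were members.

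Motifs of blood transcription factors differed less between members and methylated distal tiles than the CTCF motif did. The RUNX core (TGTGGT) was in 24.1% of members (interval 21.3 to 27.1) and in 24.9% of methylated distal tiles. The GATA motif (AGATAA) was in 16.8% and 15%, and the E-box CAGCTG in 28.3% and 33.3%. The PU.1 motif (GAGGAAGT) was in 4.69% (interval 3.45 to 6.35) and 2.12%, the C/EBP motif (TTGCNNAA) in 20.1% (interval 17.5 to 23) and 14.8%, and the AP-1 motif (TGANTCA) in 13.5% and 9.98%. The ETS motif (CCGGAAG) was in 8.9% and 5.31%, the NRF1 half-site (GCATGCGC) in 3.01% and 1.22% and the cAMP response element (TGACGTCA) in 1.2% and 0.462%. These last motifs were more frequent still in unmethylated tiles near starts, with 16.3%, 3.99% and 2.21%, whereas PU.1, C/EBP and AP-1 were found there in 3.44%, 14% and 7.2%.

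Profiles over all distal tiles with a motif, members or not, do not depend on the selection. Cytosines within 200 bp on the right of the CTCF motif averaged 0.21 in SKNO-1 and 0.285 in SKNO1-siAE, and those on the left 0.214 and 0.286. From 200 to 400 bp the level was 0.535 and 0.666 on the right and 0.56 and 0.669 on the left. From 600 to 800 bp it was 0.735 and 0.82 on the right but 0.47 and 0.652 on the left. The lowest bins of both libraries were thus those beside the motif, and the flanks were uneven. The profile of the tRNA box pair was not lowest at the pair itself. Its level was 0.49 and 0.594 within 200 bp on the left and 0.454 and 0.564 on the right, and lower values were found 800 to 1000 bp to the left, with 0.301 and 0.465. In the outermost bins, 1800 to 2000 bp away, the level was higher than beside the pair. It was 0.637 and 0.714 there on the left and 0.622 and 0.763 on the right. Around PU.1 the level within 200 bp was 0.665 and 0.754 on the left and 0.688 and 0.766 on the right, and from 1000 to 1200 bp it was 0.766 and 0.825 on the left and 0.782 and 0.85 on the right. These flanks were uneven too, since from 800 to 1000 bp the level was 0.777 and 0.84 on the left but 0.696 and 0.793 on the right.

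The nearest protein-coding genes of the members numbered 643. H2BC13, a histone gene, had 6 members among its 16 distal tiles. Of these members, 3 formed the run with a tRNA box pair named above, at least 119457 bp from the start of H2BC13. WNT11, a Wnt ligand, had 5 of 10, and ZNF184, a zinc finger gene in the histone cluster region, 5 of 23. CCN6, CDKN2C, CXXC5, FOXL2 and ZNF692 had 4 each.

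Of 215 genes in 5 lists of blood regulators, 101 were the nearest protein-coding gene of at least 1 distal tile, and 22 of these (21.8%, interval 14.8 to 30.8) were nearest to a member, against 643 of 5994 of all genes (10.7%). The blood genes had a median of 3 distal tiles each and all genes a median of 2. In tiles, 34 of 648 distal tiles nearest to a listed gene were members (5.25%, interval 3.78 to 7.24), read against the 3.21% over all distal tiles. They made up 4.09% of the members and 2.5% of the distal tiles, and when only protein-coding starts were counted 2.85% and 2.09%. The lists differed. For haematopoietic transcription factors 12 of 483 distal tiles were members (2.48%, interval 1.43 to 4.29), an interval that holds the background. PRDM16 alone gave 150 of these tiles and no member, and without it the share was 12 of 333 (3.6%, interval 2.07 to 6.19). For cytokines, receptors and signalling genes it was 6 of 46 (13%, interval 6.12 to 25.7), and 3 of the 6 were the only distal tiles of SOCS3. For leukocyte surface antigens it was 4 of 30 (13.3%, interval 5.31 to 29.7). For myeloid granule genes it was 4 of 11 (36.4%, interval 15.2 to 64.6), and 2 of the 4 were the only distal tiles of RNASE2. The share for the list of AML chromatin regulators is not reported here. Neighbouring tiles of 1 gene are not independent, and the nearest gene need not be the gene a region acts on. By the gene whose body holds the tile, 14 of 377 tiles were members (3.71%, interval 2.22 to 6.14), against 364 of 16221 distal tiles in any gene body (2.24%) and 261 of 13895 in a protein-coding gene (1.88%). The 14 included tiles in ETS1, NFIX, RUNX1, RUNX2, TCF4 and TET1.

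Of the 53 listed transcription factors with a distal tile, 8 were nearest to a member. The others, such as GATA2 (5 distal tiles), CBFA2T3 (29) and the fusion partner RUNX1T1 (5), had none. Members were 2 of the 5 distal tiles nearest to RUNX1, 1 of 4 for RUNX2 and 1 of 10 for RUNX3. RUNX1 is the haematopoietic factor that is fused in these cells. Its 2 neighbouring members lay at chr21:36399001-36400000 in an intron, 22.3 and 21.8 kb downstream of the nearest protein-coding start. The first, with 32 CpGs and 50 shared cytosines, had 2 methylated reads of 906 in SKNO-1 (0.00167 mean level, interval of the read share 0.000606 to 0.00801) and 6 of 1075 in SKNO1-siAE (0.00375, interval 0.00256 to 0.0121). In the second, with 9 CpGs, the counts were 8 of 270 and 0 of 123. Both held the RUNX core and a C/EBP match, and the second also an AP-1 match. RUNX3, a related factor, was 82 kb from an intergenic member with 43 CpGs, in which 0 of 358 and 0 of 247 reads were methylated, which allows up to 0.00838 and 0.0121 by the limit of 3 reads of the total (Wilson upper limits 0.0106 and 0.0153). RUNX2 had a member in an intron with 5 of 163 and 0 of 208 methylated reads.

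ETS1, an ETS family factor of lymphoid and myeloid cells, had a member in an intron, with the sequence shown above. There 3 of 442 reads kept their cytosine in SKNO-1 (interval 0.00231 to 0.0198) and 27 of 613 in SKNO1-siAE (interval 0.0304 to 0.0633), so the intervals did not overlap, which concerns these libraries only. GATA3, a T cell factor, was the nearest coding gene, 273.9 kb away, of 2 neighbouring intergenic members with 0 of 540 and 8 of 324 methylated reads in SKNO-1 and 1 of 232 and 1 of 227 in SKNO1-siAE. TCF4, which encodes an E protein, held a member with 0 of 167 and 0 of 98. EGR1, an immediate early factor, was 27.1 kb from a member with 2 of 291 and 0 of 324.

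LYL1, a basic helix-loop-helix factor of blood stem cells, was nearest to a run of 3 members from chr19:13207001 to 13208500. The run overlapped an untranslated region of NFIX, 5.4 to 6.4 kb downstream of LYL1's start, so both genes are neighbours of it. Methylated reads were 0 of 402, 5 of 133 and 0 of 270 in SKNO-1 and 0 of 293, 0 of 193 and 6 of 263 in SKNO1-siAE. Over all 12 members of this list, levels reached at most 0.0495 in SKNO-1 and 0.0329 in SKNO1-siAE.

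Of the 16 listed signalling genes with a distal tile, LYN, SOCS3 and CXCR4 were nearest to a member. LYN, a Src family kinase of myeloid and B cells, had 2 neighbouring members about 35 kb upstream, with 0 of 426 and 1 of 372 methylated reads in SKNO-1 and 0 of 633 and 0 of 463 in SKNO1-siAE. The count of 0 in 633 reads allows a share of up to 0.00474 by the limit of 3 reads (Wilson upper limit 0.00603). SOCS3, a feedback inhibitor of cytokine signalling, had 2 neighbouring members 6.9 and 7.4 kb downstream with 0 methylated reads in either library, of 169 and 123 reads in SKNO-1 and 95 and 72 in SKNO1-siAE. Another member, 35.4 kb downstream, had 0 of 224 in SKNO-1 and 19 of 211 in SKNO1-siAE (interval 0.0584 to 0.136). CXCR4, the chemokine receptor that holds stem cells in the marrow, was the nearest coding gene of a member 304.5 kb upstream, with 14 of 711 and 17 of 710 methylated reads, close in both libraries.

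Of the 12 listed surface antigens with a distal tile, 4 had 1 member each. CD34, a marker of stem and progenitor cells, had a CpG-poor member 12.5 kb upstream, with 6 CpGs and 2 of 309 methylated reads in SKNO-1 and 3 of 270 in SKNO1-siAE. It held GATA and C/EBP matches. CD53, a leukocyte tetraspanin, was 90.1 kb from a member with the CTCF motif, with 0 of 205 methylated reads in SKNO-1 and 19 of 242 in SKNO1-siAE (interval 0.0508 to 0.119). THY1 had 26 of 1125 in SKNO-1 (interval 0.0158 to 0.0336) and 97 of 882 in SKNO1-siAE (interval 0.091 to 0.132). CD7 was at the limit, as given above. Among the 34 members near blood regulators, the intervals did not overlap in 5, against 152 of all 831 members. SKNO1-siAE was the higher in the tiles at CD53, THY1 and ETS1 and in the far SOCS3 tile. SKNO-1 was the higher in 1 RNASE2 tile.

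Of the 8 listed granule genes with a distal tile, RNASE2, SRGN and CST7 were nearest to a member. RNASE2, which encodes the eosinophil-derived neurotoxin, was nearest to 2 neighbouring members 15.6 and 16.1 kb downstream, with 0 of 452 and 8 of 424 methylated reads in SKNO-1 and 6 of 911 and 0 of 694 in SKNO1-siAE. The second, which was the RNASE2 tile just mentioned and whose sequence is shown above, passed the island limits and held the CTCF motif. SRGN, which encodes the granule proteoglycan serglycin, had a member 26.6 kb upstream with 9 CpGs, a RUNX core and 0 of 221 and 1 of 355 methylated reads. CST7, which encodes the leukocyte cystatin F, had a member 30.7 kb upstream with 5 of 248 and 8 of 398.

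Chromatin regulators with a member included TET1, TET2 and EP300. TET1, a methylcytosine dioxygenase, had an intronic member with 0 of 288 and 2 of 139. TET2, a related enzyme often mutated in AML, was 84.3 kb from a member with 6 CpGs and 3 of 292 and 9 of 282. EP300, a histone acetyltransferase, was 69.8 kb from an island-like member with 2 of 503 and 5 of 361.

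For contrast, 28 of 1627 distal tiles nearest to developmental regulators were members (1.72%, interval 1.19 to 2.48), against the background of 3.21%. Without PRDM16, which is in this list too, it was 28 of 1477 (1.9%). They made up 3.37% of the members and 6.28% of the distal tiles. By genes, 23 of 164 developmental genes with a distal tile had a member (14%, interval 9.53 to 20.2). That interval holds the 10.7% of all genes, and the median number of distal tiles per gene was 5 against 2. Among those with the most shared cytosines, a tile 15.5 kb downstream of LBX1, a muscle and neuron homeobox gene, had 0 of 936 methylated reads in SKNO-1 and 0 of 744 in SKNO1-siAE. A tile 31.2 kb downstream of FOXL2, a gonadal forkhead gene, had 0 of 425 and 0 of 437. A tile 7.9 kb upstream of NEUROG2, a neuronal factor, had 6 of 294 and 59 of 588. Of the 28, 14 passed the island limits.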

How the data were processed

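MCC-Seq libraries were captured by the authors with SeqCap Epi probes (Roche NimbleGen). Trimmed reads were mapped to hg19 with BSMAP, and calls were taken from unique sequences. The submitters' processing notes name cutadapt 1.4.2 and BSMAP 2.73. The deposited values are raw counts of methylated and unmethylated reads per CpG cytosine and strand, without normalization and with at least 5 reads per site. Removal of PCR duplicates is not given in the sources used here. The libraries held 4713346 (SKNO-1) and 4694016 (SKNO1-siAE) sites, and 3125690 autosomal sites had at least 5 reads in both. The median depth of a member was 16 and 14.5 reads per site, so single sites are imprecise.

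Tiles of 500 bp with at least 10 shared sites were placed against GENCODE release 44 lifted to GRCh37. CpG counts, GC content and motif letters were read from the GRCh37 assembly. Near-identical copies of members were sought with BLAST 2.17.0 (at least 95% identity over 80% of the tile) and found for 13 members. RefSeq tables of a different assembly gave only names and gene order. With 1 library per cell line no test was made. Alternatives were other depths, limits, distances, grids, pooled reads and merged strands.

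Members and gene lists were chosen with earlier results of these data known. Named were the 10 runs with most tiles, up to 12 members per blood list and 8 developmental members by shared sites, the 5 members farthest from a start, the 3 with most and the 3 with fewest CpGs, and the 3 tiles just inside and just outside the limit. Sequences were the central 300 bases of tiles with many shared sites at blood genes, and of 1 of the 3 tRNA-type tiles with most shared sites whose central bases held the B box. The results for 1 gene under this rule are not reported here, although counts over all lists include it. Other named tiles were picked with their values in view. The analysis used python 3.11.15, numpy 2.4.6, pandas 2.3.3, pysam 0.24.0, samtools 1.23.1 and matplotlib 3.10.9.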

Additional observations from a re-analysis of the deposited data

How the results depend on the processing

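Over the alternatives tried, 56 of 76 values stayed close to the reported value (counts within 1.5 times, shares within their 95% Wilson interval) and 20 moved. The number of members, 831, was 450 with at least 10 reads, 373 with 20 or more sites, 495 beyond 10 kb and 2036 when only protein-coding starts were counted. The share of distal tiles that were members was 2.55% under 0.05, 4.06% under 0.2, 2.89% beyond 10 kb and 4.34% with protein-coding starts only. The share passing the island limits was 26.7% with merged strands, 45.4% with protein-coding starts only, 38.1% on a grid shifted by 250 bp and 51.2% with 20 or more sites. The share nearest to a blood regulator, 4.09%, was 2.85% with protein-coding starts only, and 1.68% lay in the body of one. The share in introns or exons was 48.3% with merged strands, 47.9% beyond 2 kb, 39.8% beyond 10 kb and 66.2% with protein-coding starts only. The share with the CTCF motif, an alternative set chosen after seeing the data, was 8.55% with protein-coding starts only and 10.6% to 13.1% otherwise. Of the 55 named tiles, 52 stayed under 0.1 in both libraries with pooled reads, and with at least 10 reads 30 could be measured, of which 27 stayed. Leaving out PRDM16 from the lists of transcription factors and developmental genes was also chosen after seeing the data. Counting only protein-coding starts adds tiles at starts of non-coding genes. The cause of the other moves was not tested. No paired analysis was possible because each cell line has 1 library. Depth limits single tiles, since a member had as few as 50 reads summed over its cytosines.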
